A study of Homo sapiens with 24 samples.

Results

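The genes described here are 10 members of the heterogeneous nuclear ribonucleoprotein (hnRNP) family, HNRNPA0, HNRNPA1, HNRNPA2B1, HNRNPA3, HNRNPAB, HNRNPD, HNRNPK, HNRNPL, HNRNPR and HNRNPU. They were taken by gene name from a table of 57773 genes, and all 10 passed the filter of at least 1 TPM in at least 2 libraries that 16994 genes passed. RNA abundance had been measured by TGIRT-seq, in which ribosomal-RNA-depleted and fragmented total RNA is copied by a thermostable group II intron reverse transcriptase, in SKOV3.ip1 cells, which derive from SKOV-3, an established ovarian carcinoma cell line. The 24 libraries form 12 groups of 2. In 8 groups the cells had received 1 siRNA at 100 nM, namely siRNA_1 or siRNA_2 against RBFOX2 (RBM9 in the labels), siRNA_2 or siRNA_3 against hnRNPC, siRNA_1 or siRNA_3 against hnRNPM, and siRNA_1 or siRNA_3 against SRSF1 (SFRS1 in the labels). The other 4 groups were mock sets given Lipofectamine alone, and RNA was taken at 72 h in every group. By their labels, the mock set n4/n5 served as control for the RBFOX2 siRNAs and the mock set oct for the hnRNPC siRNAs. For hnRNPM, siRNA_1 had mock oct and siRNA_3 mock jan as control, and for SRSF1, siRNA_1 had mock nov and siRNA_3 mock jan. No group received an siRNA without a target, so effects of transfecting any siRNA cannot be told apart from effects of the depletion. The hnRNPC and hnRNPM comparisons share the oct libraries, and the hnRNPM and SRSF1 comparisons share the jan libraries.

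hnRNP proteins coat nascent transcripts in the nucleus and act in splicing, export, stability and translation of messenger RNA. Many of them regulate their own transcripts or those of related hnRNP genes through alternative splicing. The 4 depleted proteins are themselves RNA-binding splicing regulators, and hnRNPC and hnRNPM belong to the same family as the 10 genes, so the comparison asks whether the RNA of the other hnRNP genes changed when one regulator was depleted. Splicing itself was not analysed here, and a gene-level value can hide a switch between isoforms.

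Deposited values were TPM, which are scaled to a fixed total in every library and do not give its sequencing depth. Small structured RNAs took 64.6 to 80.8% of the TPM of a library, and 12637 to 15734 genes reached 1 TPM. The values below were therefore rescaled by a median ratio over 22727 genes, with factors of 0.664 to 1.41, and are called scaled TPM. As deposited, the 10 genes together held 340.8 to 861 TPM, which was 0.164 to 0.246% of the TPM outside small structured RNAs. All 9 markers of an ovarian carcinoma epithelial line averaged at least 1 scaled TPM, and of the 14 markers of leukocytes, endothelium, liver, nerve, blood and muscle that the table lists, 0 did (summed level 0.263 to 0.771 scaled TPM in a library). The rank correlation over genes between GC content and a library's deviation from the mean ran from -0.593 to 0.579.

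The siRNAs lowered their targets. RBFOX2 read 16.2 and 17.7 scaled TPM in its mock libraries and 4.15 to 5.45 in the 4 libraries given its siRNAs (log2 change -1.61 ± 0.07 SE). HNRNPC read 128 and 166 in mock oct and 37.4 to 45.5 after its siRNAs (log2 change -1.77 ± 0.10 SE). HNRNPM read 33.0 to 42.6 in its 4 mock libraries and 8.20 to 12.5 after its siRNAs (log2 change -1.83 ± 0.10 SE), and SRSF1 read 188 to 228 and 40.0 to 51.8 (log2 change -2.16 ± 0.15 SE). No library given a targeting siRNA overlapped with its mock libraries for the target.

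Expression of the 10 genes spanned about an order of magnitude on the scaled TPM scale, which is per transcript length and so allows levels to be set side by side between genes. HNRNPK, a KH-domain protein that binds C-rich RNA and DNA, had the highest level of the 10 entries taken without their gene copies, with a lowest, median and highest value of 110, 141 and 165 scaled TPM over the 24 libraries. HNRNPU, also known as scaffold attachment factor A, which binds RNA and chromatin, followed with 58.7, 80.6 and 106. HNRNPK was above HNRNPU in 24 of 24 libraries and their ranges did not overlap. HNRNPA2B1, a splicing factor and close relative of HNRNPA1 in the A/B group, read 48.0, 64.0 and 94.5. Its range overlapped with that of HNRNPU, yet HNRNPU was the higher of the pair in 23 of 24 libraries.

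A middle group of 5 genes lay close together. HNRNPR, a relative of SYNCRIP, read 33.7, 44.8 and 55.2 scaled TPM (lowest, median, highest), and HNRNPA1, a splicing repressor that shuttles between nucleus and cytoplasm, read 31.5, 41.9 and 50.5. HNRNPA3, another A/B protein, read 28.1, 36.8 and 52.6. HNRNPAB, an A/B-type RNA-binding protein, read 25.3, 34.2 and 42.8, and HNRNPL, which binds CA-rich RNA, read 23.3, 32.2 and 41.1. Neighbours in this order changed places from library to library: HNRNPR was above HNRNPA1 in 17 of 24 libraries, HNRNPA1 above HNRNPA3 in 17, HNRNPA3 above HNRNPAB in 16 and HNRNPAB above HNRNPL in 16. The order inside the middle group was thus within the spread of the libraries, whereas HNRNPA2B1 was above HNRNPR in 24 of 24 libraries.

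The lowest levels belonged to HNRNPA0, an A/B protein encoded by a gene on chromosome 5, at 12.9, 17.5 and 25.0 scaled TPM, and to HNRNPD, also known as AUF1, which binds AU-rich elements of messenger RNAs, at 11.8, 15.2 and 20.9. HNRNPL was above HNRNPA0 in 24 of 24 libraries, and HNRNPA0 above HNRNPD in 22. For every one of the 10 genes the highest library was 1.51 to 1.97 times the lowest on the scaled TPM scale, with HNRNPK the narrowest and HNRNPA2B1 the widest.

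**Figure D1:**
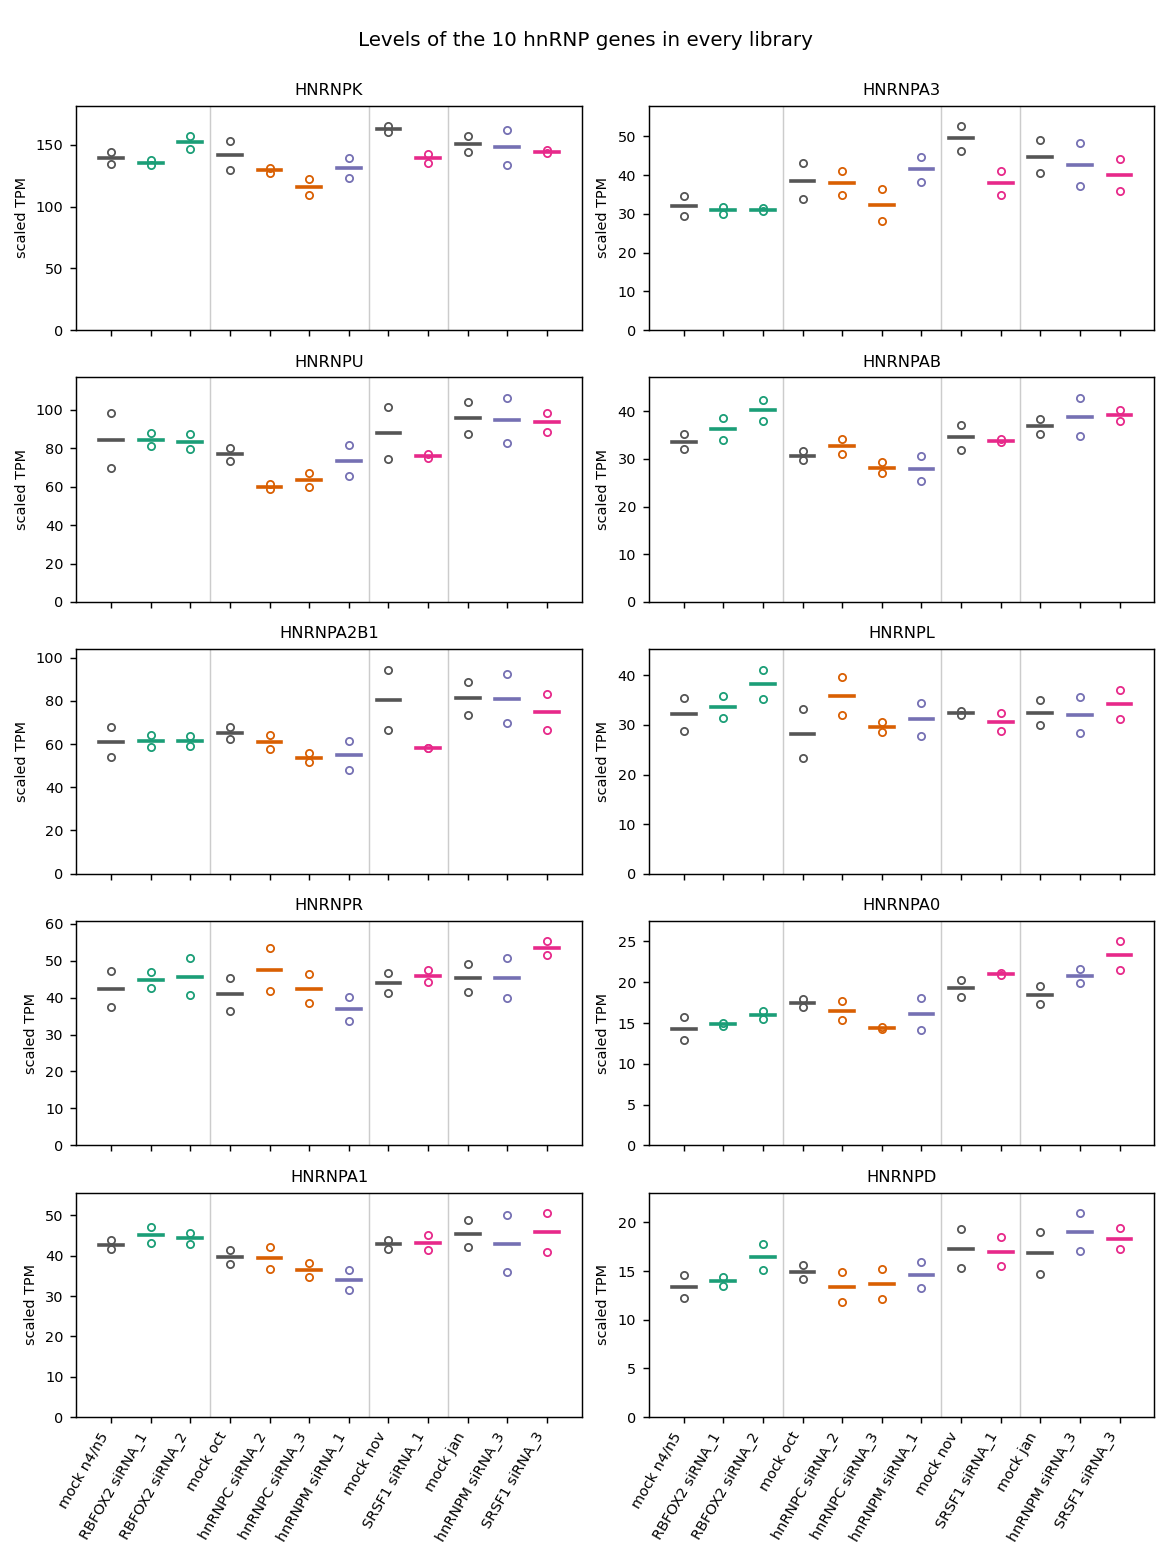
Scaled TPM (y axis, starting at 0) of each of the 10 genes in the 12 groups (x axis); open points are the 2 libraries of a group, bars their mean, and grey lines separate each mock set with the siRNA groups it serves (hnRNPM siRNA_3 and SRSF1 siRNA_3 both use jan). HNRNPK lies between 110 and 165 and HNRNPD between 11.8 and 20.9, and siRNA groups lie near their mock sets.

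Part of the signal of the family was listed under genes named as copies, most of all for HNRNPA1. The table holds 105 genes named as copies of a member (the member's symbol followed by P and a number, plus HNRNPA1L2), of which 76 belong to HNRNPA1, and 22 passed the filter. HNRNPA1 itself held a median of 16.0% of the TPM summed over it and its copies (range 13.4 to 20%). HNRNPA1P48 alone averaged 124 scaled TPM (68.2 to 159), against 41.8 for HNRNPA1, followed by HNRNPA1P10 at 39.4, HNRNPA1P7 at 20 and HNRNPA1L2 at 19.1. The member's median share was 51.7% for HNRNPA3 (HNRNPA3P6 at 25.0 scaled TPM), 63.8% for HNRNPL (HNRNPLP2 at 17.6), 67.2% for HNRNPK (HNRNPKP4 at 48.8) and 76.1% for HNRNPU (HNRNPUP1 at 25.5). For HNRNPAB, HNRNPD and HNRNPR it was 96.1 to 98.2%, and for HNRNPA0 and HNRNPA2B1 0 copies with such names were listed. The tool that made the TPM table and its treatment of reads that match several genes are not given in the sources used here, so the split of reads between a member and its copies is uncertain and levels of HNRNPA1, HNRNPA3, HNRNPL, HNRNPK and HNRNPU may be too low. The order of levels turned when copies were added. HNRNPA1 with its copies read 159, 265 and 317 scaled TPM (lowest, median, highest) and HNRNPK with its copies 162, 207 and 244. The HNRNPA1 sum was the higher in 22 of 24 libraries. TPM are corrected for length, so shares and sums over entries that may differ in length do not count reads.

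The transcripts of the most abundant copies were 95 to 99.6% identical to the member's coding sequence where they aligned, over 14.7 to 100% of it. Members and copies were aligned with the transcripts of GENCODE 29 (GRCh38), where HNRNPA1 lies on chromosome 12 and HNRNPA1P48, there typed as protein coding, on chromosome 16. Over the 963 bases of the HNRNPA1 coding sequence, HNRNPA1P48 was identical at 957 (99.4%), HNRNPA1P10 on chromosome 19 at 958 of 962 aligned bases (99.6%), HNRNPA1P7 on chromosome 18 at 954 (99.1%) and HNRNPA1L2 on chromosome 13 at 948 (98.4%). Of the remaining copies, HNRNPKP4 and HNRNPKP2 matched the HNRNPK coding sequence at 96.6% and 95% of aligned bases. HNRNPLP2 matched that of HNRNPL at 97.4%. HNRNPA3P6 matched HNRNPA3 at 99.6%, over 88.1% of its coding sequence. HNRNPUP1 covered 14.7% of the HNRNPU coding sequence, at 97.0% identity.

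**Figure D2:**
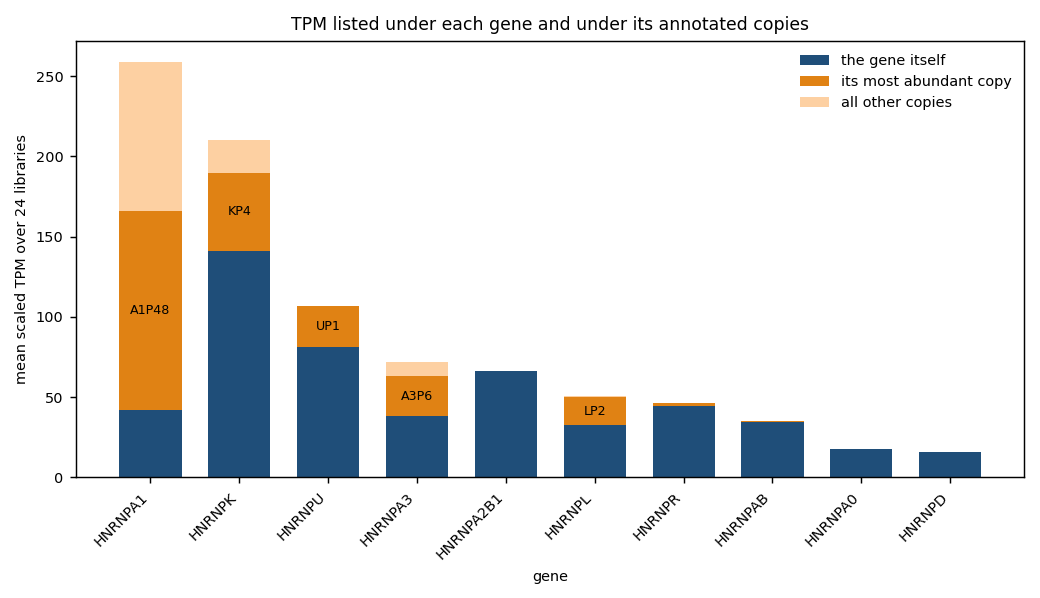
Mean scaled TPM over the 24 libraries (y axis, starting at 0) listed under each gene (dark), its most abundant copy (orange, named where large enough) and its other copies (pale). HNRNPA1 holds 41.8 of its stack, HNRNPA1P48 124, whereas HNRNPA0 and HNRNPA2B1 have no listed copy.

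Changes after depletion were tested with limma on log2(scaled TPM + 1), as the mean of both siRNAs of a protein, each against its own mock set. Genes counted as called had an adjusted p under 0.05 (Benjamini-Hochberg, over all 16994 tested genes) and the same sign with each siRNA. Members called numbered 0 of 10 after each of the 4 depletions. Of all tested genes, that rule called 0.112% after RBFOX2 depletion, 6.45% after hnRNPC, 1.04% after hnRNPM and 9.37% after SRSF1 depletion. With 10 genes, 0 calls cannot be set apart from these shares. At an unadjusted p under 0.05 there were 0 of 10 members after RBFOX2 depletion (12.2% of all tested genes), 1 after hnRNPC (20.9%), 0 after hnRNPM (10.8%) and 3 after SRSF1 depletion (23.3%). With 2 libraries in each group, p-values measure the spread between these libraries, which the series calls biological replicates. In bulk RNA, fewer cells of a kind and less RNA per cell cannot be told apart.

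**Figure D3:**
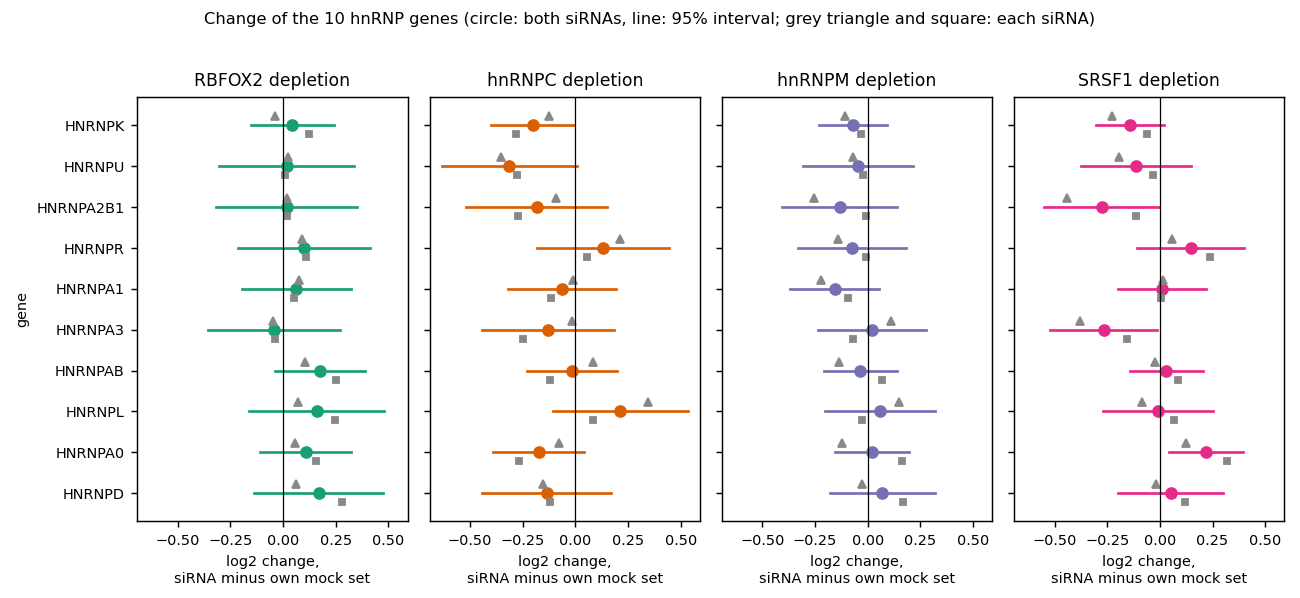
Log2 change (x axis, siRNA minus own mock set) of the 10 genes (y axis) in the 4 depletions; circles are the mean of both siRNAs, lines the 95% confidence interval, and grey triangles and squares the lower- and higher-numbered siRNA. All circles lie between -0.31 and 0.22, and 0 of 40 passed the adjusted threshold.

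After depletion of hnRNPC, a protein that binds uridine-rich tracts and is best known for masking cryptic splice sites, HNRNPU showed the lowest log2 change of the 10 genes. It read 73.7 and 80.2 scaled TPM in mock oct, 58.7 and 61.3 with siRNA_2, and 59.7 and 67.0 with siRNA_3. All 4 siRNA libraries lay below both mock libraries, and the mean was 80.4% of the mock level (95% interval 64.4 to 100%; log2 change -0.31 ± 0.15 SE, limma adjusted p = 0.25). HNRNPK read 130 and 153 in mock oct, 127 and 131 with siRNA_2, and 110 and 122 with siRNA_3. It was lower with siRNA_3 without overlap but overlapped with siRNA_2 (log2 change -0.20 ± 0.09 SE, limma adjusted p = 0.227, unadjusted p = 0.0448). HNRNPL had a positive mean change, at 23.3 and 33.2 in mock oct, 32.0 and 39.6 with siRNA_2 and 28.5 and 30.5 with siRNA_3 (log2 change 0.21 ± 0.15 SE, limma adjusted p = 0.458). Both siRNAs overlapped with mock, and 32.0, 28.5 and 30.5 lay below the higher mock library. The lower mock value, in mock oct replicate 1, was the lowest of HNRNPL in any library. With 1 library left out, its log2 change ran from -0.03 to 0.46.

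Of the 10 genes, 8 had a negative and 2 (HNRNPL and HNRNPR) a positive log2 change after hnRNPC depletion. The median was -0.13 against -0.01 for all tested genes, a value that the scaling holds near 0. With 1 library left out, HNRNPL and HNRNPR reached -0.034 and -0.025, and HNRNPA3 and HNRNPAB reached 0.04 and 0.02. The remaining genes stayed negative. With siRNA_3, 5 members (HNRNPA0, HNRNPA2B1, HNRNPAB, HNRNPK and HNRNPU) had both libraries below both mock libraries, as did 22.1% of all tested genes, and with siRNA_2 1 did (HNRNPU; 25.9% of all tested genes). The widest 95% limits over the 10 genes were -0.63 and 0.53 in log2 change. Against all 8 mock libraries as a single control, 2 of 10 members (HNRNPK and HNRNPU) were called, and so were 26% of all tested genes. That control mixes mock sets that differed for 5.53% of tested genes.

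After SRSF1 depletion, HNRNPA2B1 and HNRNPA3 had the lowest log2 changes and HNRNPA0 the highest. SRSF1 is a serine- and arginine-rich protein that promotes exon inclusion and is known as an antagonist of HNRNPA1 in splice site choice. HNRNPA2B1 read 66.4 and 94.5 scaled TPM in mock nov against 58.0 and 58.3 with siRNA_1, without overlap, and 73.5 and 88.7 in mock jan against 66.5 and 83.4 with siRNA_3, with overlap (log2 change -0.28 ± 0.13 SE, limma adjusted p = 0.206). HNRNPA3 read 46.3 and 52.6 in mock nov against 34.8 and 41.0 with siRNA_1, and 40.4 and 49.1 in mock jan against 35.9 and 44.2 with siRNA_3 (log2 change -0.27 ± 0.12 SE, limma adjusted p = 0.192). Both A/B genes thus had lower means with each siRNA, and the groups were separate with siRNA_1 and overlapped with siRNA_3.

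HNRNPA0 went the other way. It read 18.2 and 20.3 scaled TPM in mock nov and 20.9 and 21.1 with SRSF1 siRNA_1, and 17.4 and 19.6 in mock jan and 21.6 and 25.0 with siRNA_3. All 4 siRNA libraries were above their own mock libraries, and the mean was 116% of mock (95% interval 103 to 132%; log2 change 0.22 ± 0.08 SE, limma adjusted p = 0.114). HNRNPA0 was the 1 member called with a GC correction of each library, where 13.2% of all tested genes were called, and with all 8 mock libraries as control, where 15.5% were. HNRNPA1 showed a log2 change of 0.01 ± 0.10 SE, with 95% limits of -0.20 and 0.22. The median over the 10 genes was 0.00 (5 higher, 5 lower). With siRNA_1, 1 member was above and 3 below both mock libraries (21.8% and 24.2% of tested genes), and with siRNA_3 2 were above and 0 below (26.9% and 22.9%). Limits over the 10 genes were -0.55 and 0.40.

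After hnRNPM depletion the log2 changes of the 10 genes ran from -0.16 to 0.07, with a median absolute change of 0.06 and 95% limits of -0.41 and 0.32. hnRNPM is an RRM protein that binds GU-rich RNA and regulates alternative splicing in epithelial and mesenchymal cells. HNRNPA1 had the lowest value. It read 38.0 and 41.4 scaled TPM in mock oct and 31.5 and 36.4 with siRNA_1, without overlap, and 42.1 and 48.8 in mock jan and 35.9 and 50.1 with siRNA_3, with overlap (log2 change -0.16 ± 0.10 SE, limma adjusted p = 0.637). With siRNA_1, 2 members lay below both mock libraries (20.3% of tested genes) and 0 above (16.3%), and with siRNA_3 1 lay above (19.8%) and 0 below (17.8%). The median over the 10 genes was -0.04 (4 higher, 6 lower), and its sign turned when hnRNPM siRNA_3 replicate 2 was left out (0.04).

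RBFOX2 binds the GCAUG motif and regulates alternative exons in epithelial and mesenchymal cells. After its depletion 9 of 10 members had a positive log2 change, with a median of 0.08. The median of all tested genes was 0.00, a value that the scaling holds near 0. Over 11270 protein-coding genes, the log2 change had a rank correlation of 0.431 with GC content. It was 0.229 after hnRNPC, 0.399 after hnRNPM and 0.0917 after SRSF1 depletion. What part of the members' changes goes with GC content was not tested. HNRNPAB had the largest log2 change of the members. All 10 genes read lower in replicate 5 than in replicate 4 of mock n4/n5 (median log2 difference -0.25). With 1 library left out, the change reached -0.23 for HNRNPU, -0.15 for HNRNPA2B1, -0.06 for HNRNPR, -0.03 for HNRNPA0 and -0.01 for HNRNPK. For HNRNPA1, HNRNPAB, HNRNPD and HNRNPL it stayed positive. HNRNPAB read 32.0 and 35.3 scaled TPM in mock n4/n5, 33.9 and 38.6 with siRNA_1 and 37.9 and 42.4 with siRNA_2, so siRNA_2 was separate from mock and siRNA_1 was not (log2 change 0.18 ± 0.10 SE, limma adjusted p = 0.52). HNRNPA3 was the member with a negative log2 change (-0.04 ± 0.15 SE), and it reached 0.07 with 1 library left out. With siRNA_2, 3 members (HNRNPAB, HNRNPD and HNRNPK) lay above both mock libraries (23.8% of all tested genes) and 0 below (20.8%), and with siRNA_1 0 lay above and 0 below (21.1% and 22.8%). The 95% limits over the 10 genes were -0.36 and 0.48. With all 8 mock libraries as control, the median was -0.03 and 1 of 10 members, HNRNPA3, was called, as were 29.4% of all tested genes.

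Summing each member with its copies before the test, a step chosen after the values were seen, left 0 members called in each depletion. HNRNPA1 with its copies read 251 ± 18.9 scaled TPM (SD, n = 2) in mock oct and 204 ± 19.9 (n = 4) after hnRNPC depletion, a log2 change of -0.30 ± 0.14 SE (limma adjusted p = 0.232), where HNRNPA1 alone gave -0.06 ± 0.12 SE. After hnRNPM depletion it read 271 ± 32.9 in mock (n = 4) against 233 ± 66.5 (n = 4), a log2 change of -0.25 ± 0.11 SE (limma adjusted p = 0.444). That value pools siRNAs with separate mock sets. HNRNPA1P48, the largest part of the sum, changed by -0.52 with hnRNPM siRNA_1 and by 0.02 with siRNA_3. HNRNPA1P10 changed by -0.58 and -0.14. HNRNPA1P48, the most abundant copy, gave -0.26 ± 0.16 SE after hnRNPC depletion (limma adjusted p = 0.402). HNRNPA1P10 read 33.5 and 41.3 in mock oct, 18.4 and 27.9 with hnRNPC siRNA_2, and 21.4 and 24.8 with siRNA_3, with all 4 below both mock libraries (log2 change -0.68 ± 0.20 SE, limma adjusted p = 0.0554). Tested copies called numbered 0 of 22 in each depletion. The same rule called 0.112% of all tested genes after RBFOX2, 6.45% after hnRNPC, 1.04% after hnRNPM and 9.37% after SRSF1 depletion. With 22 copies, 0 calls cannot be set apart from these shares. HNRNPA1P10 was called after hnRNPC depletion with the GC correction (8.78% of all tested genes) and with the filter at 5 TPM. It was also called with 3 of the 24 libraries left out in turn, hnRNPC siRNA_2 replicate 3 and either mock nov library.

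The siRNAs against the same protein were then compared with each other. Differences called numbered 0 of 40 (10 members in 4 proteins), while limma called 1.51% of tested genes between the RBFOX2 siRNAs, 11.1% for hnRNPC, 0.0412% for hnRNPM and 0.00588% for SRSF1. At an unadjusted p under 0.05 there were also 0 of 40, against 13.5%, 24.9%, 5.19% and 4.97% of tested genes in the same order. These shares are not alike in design. The siRNAs of RBFOX2, and those of hnRNPC, share a mock set, which drops out of the difference. Those of hnRNPM and SRSF1 have separate mock sets, so set and siRNA cannot be told apart. Their SE was also larger (for HNRNPA0 0.165, against 0.117 for RBFOX2 and hnRNPC). The intervals were wide, between -0.87 and 0.63 in log2 over the 40 differences, so siRNAs that differ by a moderate amount could not be separated. Among the mock sets, 0 members were called by the limma F test, which called 5.53% of tested genes. HNRNPA3 differed most, with means of 32.0, 38.5, 49.4 and 44.8 scaled TPM in n4/n5, oct, nov and jan (adjusted p = 0.106), followed by HNRNPA0 with 14.3, 17.5, 19.2 and 18.5 (adjusted p = 0.112). These 2 genes had an unadjusted p under 0.05, as did 25.1% of tested genes. The highest mock mean of HNRNPA3 was 1.54 times the lowest, while its mean in the 4 depletions was 83.1 to 101% of the matched mock level.

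The 10 genes deviated together between the libraries of a group. In 7 of 12 groups all 10 differed in the same direction between the libraries, for example all lower in replicate 5 of mock n4/n5 (median log2 difference -0.25, HNRNPU -0.49) and all lower in replicate 2 of hnRNPM siRNA_3 (median -0.33, HNRNPA1 -0.47). In these groups 45.3% and 40.3% of tested genes with a mean of at least 10 scaled TPM were higher in the higher-numbered library. Over the 12 groups this share ran from 40.3 to 70.2%. The median of these tested genes differed by -0.03 and -0.05 in the 2 groups, but the median-ratio scaling holds that value near 0. The replicate SD of a member had a median of 0.18 in log2 (range 0.10 to 0.19), against 0.12 for 5475 tested genes with at least 10 scaled TPM. The rank correlation of a library with GC content moved with this. In 11 of 12 groups the 10 genes were, by their median difference, higher in the library with the lower GC correlation, SRSF1 siRNA_3 being the exception. After the GC correction the median replicate SD was 0.13 (0.10 for the 5475 genes) and all 10 genes still shared a direction in 5 of 12 groups.

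**Figure D4:**
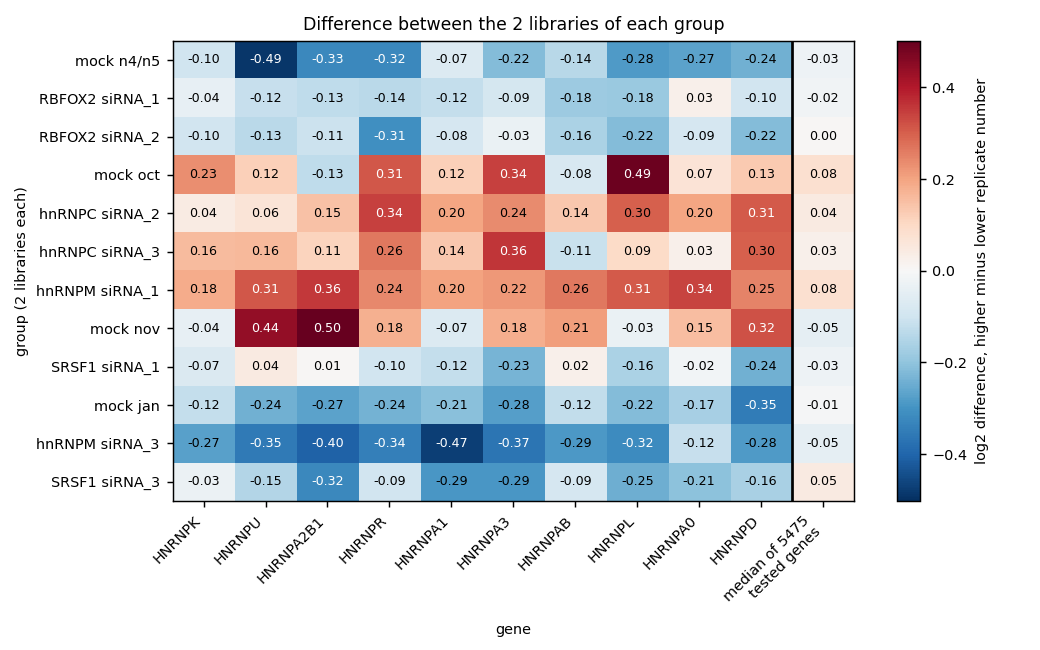
Log2 difference between the 2 libraries of each group (rows; higher minus lower replicate number) for the 10 genes (columns) and for the median of 5475 tested genes of at least 10 scaled TPM (last column); red is higher and blue lower in the library with the higher number. Over the 10 genes, rows are of a single colour in 7 of 12 groups. The last column lies between -0.05 and 0.08, and the median-ratio scaling holds it near 0.

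Over the 12 group means, the 45 pairs of members had a median Pearson r of 0.58, from -0.19 (HNRNPA3 with HNRNPL) to 0.89 (HNRNPA1 with HNRNPAB), and 42 were positive. These points share mock sets and library composition, so the coefficients are given as a description. HNRNPA0 and HNRNPD were each other's closest member (r = 0.88), as were HNRNPK and HNRNPU (r = 0.79), and HNRNPL was the least tied to the rest, with HNRNPAB as its closest member (r = 0.65). Among 2896 other genes with a mean of at least 20 scaled TPM, which leave out members and their copies, CKAP4 was most like HNRNPA0 (r = 0.98), PNN most like HNRNPU (r = 0.95), ZWINT most like HNRNPAB (r = 0.95), HMGB1P5 most like HNRNPA1 (r = 0.95), RDX most like HNRNPA2B1 (r = 0.95) and CSNK2A2 most like HNRNPA3 (r = 0.94). For HNRNPD it was NOP58 (r = 0.93), for HNRNPK ADSS (r = 0.93), for HNRNPR GGH (r = 0.90) and for HNRNPL UBE2S (r = 0.90). Of the copies, HNRNPA1P48 had r = 0.93 with HNRNPA1, and HNRNPKP4 had r = 0.95 with HNRNPK, above the r of ADSS.

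Among close relatives of the 10 genes, called genes numbered 0 of 6 in each depletion. Of all tested genes, 0.112% were called after RBFOX2, 6.45% after hnRNPC, 1.04% after hnRNPM and 9.37% after SRSF1 depletion. With 6 genes, 0 calls cannot be set apart from these shares. SYNCRIP, the paralogue of HNRNPR, averaged 76.5 scaled TPM, HNRNPDL 50.6, HNRNPUL1 30.2, HNRNPLL 21.2, HNRNPA1L2 19.1 and HNRNPUL2 4.31. SYNCRIP read 76.4 in mock oct and 63.7 after hnRNPC depletion (means; log2 change -0.26 ± 0.11 SE, limma adjusted p = 0.198) and was called there with the GC correction, which called 8.78% of all tested genes. Genes at the same loci also had 0 calls: HNRNPU-AS1, the antisense neighbour of HNRNPU, averaged 15.3 scaled TPM, and CBX3, which lies beside HNRNPA2B1, 35.0. Whether counting used strand is not given in the sources used here, so HNRNPU and HNRNPU-AS1 may share reads. MIR7-1, whose precursor lies in an intron of HNRNPK, was listed at 0 in all 24 libraries.

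Of 18 tested other hnRNP genes, 2 fell after SRSF1 depletion, in which 9.37% of all tested genes were called, so the share is near that of all genes. Both are genes of the hnRNP H group, which binds G-rich RNA. HNRNPH1 fell from 195 ± 9.55 (SD, n = 4) to 137 ± 14.7 scaled TPM (n = 4; log2 change -0.51 ± 0.09 SE, limma adjusted p = 0.00229), and HNRNPH3 from 57.8 ± 9.18 (n = 4) to 35.8 ± 7.04 (n = 4; log2 change -0.68 ± 0.14 SE, limma adjusted p = 0.00648). After hnRNPC depletion CIRBP, a cold-inducible RNA-binding protein, fell from 84.9 ± 2.45 (n = 2) to 63.4 ± 3.78 (n = 4; log2 change -0.42 ± 0.08 SE, limma adjusted p = 0.00557), beside HNRNPC itself, and after hnRNPM depletion HNRNPM itself was the 1 called gene of the list. None of the 18 was called after RBFOX2 depletion by limma, with 3 at an unadjusted p under 0.05 (12.2% of all tested genes). Of all tested genes, 6.45% were called after hnRNPC, 1.04% after hnRNPM and 0.112% after RBFOX2 depletion. The CIRBP call was lost without mock oct replicate 3.

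Genes that import, modify or partner hnRNP proteins gave few calls, near the share of all tested genes. That share was 0.112% after RBFOX2, 6.45% after hnRNPC, 1.04% after hnRNPM and 9.37% after SRSF1 depletion. Of 14 import and modification genes, 1 fell after hnRNPC depletion, the kinase gene SRPK1, which phosphorylates serine- and arginine-rich proteins, from 26.0 ± 1.63 (n = 2) to 17.5 ± 0.77 scaled TPM (n = 4; log2 change -0.54 ± 0.07 SE, limma adjusted p = 0.00026), and 1 rose after SRSF1 depletion, the arginine methyltransferase gene PRMT6, from 9.57 ± 0.57 to 12.1 ± 0.76 (n = 4 each; log2 change 0.31 ± 0.05 SE, limma adjusted p = 0.0023). Of 13 nuclear matrix and nuclear RNA partners, the helicase gene DDX17 fell after hnRNPC depletion (125 ± 7.04 to 101 ± 14.4; log2 change -0.32 ± 0.08 SE, limma adjusted p = 0.0208) and the paraspeckle gene PSPC1 rose after SRSF1 depletion (11.8 ± 0.85 to 16.1 ± 1.25; log2 change 0.42 ± 0.08 SE, limma adjusted p = 0.00449). The DDX17 change differed between the hnRNPC siRNAs (-0.48 and -0.16, limma adjusted p = 0.0301) and its call was lost when hnRNPC siRNA_2 replicate 3, hnRNPC siRNA_3 replicate 1 or mock oct replicate 3 was left out. Of 12 tested AU-rich element and mRNA stability genes, 0 were called in any depletion. At an unadjusted p under 0.05 there were 3, 2, 1 and 1 after RBFOX2, hnRNPC, hnRNPM and SRSF1 depletion. The shares of all tested genes were 12.2%, 20.9%, 10.8% and 23.3% in the same order. Called genes of these lists other than the targets, 7 in number, kept their calls in the 11 other settings in which the lists were counted, except that 6 (all but SRPK1) were not called with TPM as deposited.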

How the data were processed

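The authors deposited TPM (a length-corrected share of each library, summing to 1e+06 in each library) for 57773 genes. Per the submitters' processing notes, SAMtools 0.1.19.0, Bowtie2 2.1.0.0, TopHat2 2.0.9, Trimmomatic 0.38 and FastQC 0.10.1 were used, with hg19 as assembly. The quantifier, gene annotation, use of strand and handling of multiply matching reads are not given in the sources used here. TPM are not counts, so no depth or counting interval could be had.

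TPM were scaled by median ratios over genes above 0 in all libraries and analysed as log2(value + 1), which understates changes of weakly expressed genes. The 16994 genes that reached 1 TPM in 2 or more libraries entered limma 3.58.1 (R 4.3.3) with 12 groups and a mean-variance trend (12 residual and 3.04 prior degrees of freedom), and p-values were Benjamini-Hochberg adjusted over all of them. The fit was tested on simulated data with independent noise for each gene and library. That simulation did not cover deviations shared between genes or libraries, as seen in these data. Levels of the 10 genes, the targets, the called genes of fixed lists (up to 3 per depletion) and the closest genes by correlation were named. Members and lists were chosen with earlier results of these data known. GC content, gene types and sequences came from GENCODE 29 (GRCh38) by gene identifier (GC for 95.7% of tested genes), with alignments in Biopython 1.88, and no coordinates of the deposited build were used. Replicate numbers were tested as pairing in an alternative fit. The other alternatives were values as deposited, quantile normalisation, a total without small structured RNAs, a filter at 5 TPM or none, 0.1 as pseudocount, no trend, robust moderation, GC correction, all mock libraries as control, fits on single comparisons, no sign rule, and leaving out each library. Summing members with their copies was added after the data were seen. Sequences of the gene copies are not reported here.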

Additional observations from a re-analysis of the deposited data

How the results depend on the processing

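Leaving out each of the 24 libraries in turn gave 0 to 0 members called in every depletion, between siRNAs and among mock sets. Of 960 log2 changes of members recomputed in this way 47 changed sign, and of 560 under the other settings 20 did, all of them uncalled in both fits, and 16 passed the threshold. Labels give same-numbered libraries only a number: their deviations correlated at 0.0507 to 0.5 in 13 pairs of groups, over 0.1 in 12. With the replicate block, 3 of 10 members were called after SRSF1 depletion (HNRNPA0, HNRNPA2B1 and HNRNPA3; 16.5% of all tested genes), 2 among mock sets (HNRNPA0 and HNRNPA3; 23.3%) and 1 between the hnRNPC siRNAs (HNRNPL; 19.3%). With the block the same rule called 363 genes after RBFOX2, 2267 after hnRNPC, 355 after hnRNPM and 2805 after SRSF1 depletion, against 19, 1096, 176 and 1593 without it. With GC correction and the replicate block, 3 members were called after hnRNPC depletion (HNRNPK, HNRNPR and HNRNPU, against 16.4% of all tested genes), 5 after SRSF1 depletion (HNRNPA0, HNRNPA2B1, HNRNPA3, HNRNPK and HNRNPR, against 20.6%), 2 between the hnRNPC siRNAs (23.6%) and 1 among mock sets (22%). GC correction alone gave 1 after SRSF1 depletion (HNRNPA0, against 13.2%). All mock libraries as a single control gave 1 after RBFOX2, 2 after hnRNPC and 1 after SRSF1 depletion, against 29.4%, 26% and 15.5% of all tested genes. As deposited, all 10 members differed among mock sets, as did 57.4% of all tested genes, and the median change of all tested genes moved to 0.21 after RBFOX2 and -0.142 after hnRNPC depletion, with members at 0.342 and -0.298. The cause of these differences was not tested. The remaining settings gave 0 members called. Unknown depth, 2 libraries a group and the split of reads among gene copies limit what could be detected.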
